A study of Danio rerio with 6 samples.

Results

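The lysosome is the acidic compartment in which a cell breaks down proteins, sugars, lipids and nucleic acids that reach it by endocytosis, phagocytosis and autophagy. A proton pump, the V-ATPase, acidifies it, soluble hydrolases do the digestion, membrane proteins line it and carry the products out, and receptors, adaptors and clathrin bring newly made hydrolases to it from the Golgi. Heart muscle cells use it to turn over organelles and membrane, and in macrophages, which clear debris, it is especially rich in hydrolases. The genes described here are those that the KEGG pathway column of the count table lists under Lysosome and that had a mean raw count above 5 over all libraries. Of 128 genes listed, 116 met this minimum, out of 23000 genes in the table, and 12 did not, 4 of them without any count.

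The RNA came from atrial cardiomyocytes (CMs) of wild-type zebrafish hearts at 48 and 72 hours post fertilization (hpf), with 3 libraries per stage. Animals of both stages carried the same reporters, myh6:mTagBFP2 for atrial CMs, myh7:mCherry-NTR for ventricular CMs and 7XTCF-Sia:eGFP for Wnt/β-catenin activity, and no group was treated or mutant. Each library is a pool of cells sorted by fluorescence from many dissected hearts, so that it represents no single animal, and the p-values below measure the spread between pools. Cells of replicates 1 and 2 went through a BD FACSAria and a BigFoot sorter and those of replicate 3 through the BigFoot only. The paper's methods describe the atrial CMs as few. They also state that RNA quality was not checked because there was little RNA.

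Totals ranged from 3577234 to 5629941 counts per library, and a floor of 3 counts corresponds to 0.533 to 0.839 CPM, where CPM are counts relative to each library's sum. This floor reflects counting error alone. The 7 atrial marker genes fixed as a list, among them myh6, nppa and nr2f1a, were above 3 counts in all 6 libraries and summed to 2942 to 4216 CPM at 48 hpf and 3653 to 4298 CPM at 72 hpf. Markers of other cell types were present as well. The 5 measured ventricular markers summed to 1307, 1013 and 1675 CPM at 48 hpf (replicates 1 to 3) and to 715, 565 and 825 CPM at 72 hpf, without overlap. Most of this sum was myh7 and myh7l. The gene irx4a had no counts, and hey2 went the other way, with 0, 39 and 0 raw counts and then 41, 26 and 74. The paper reports low signal of the myh7 reporter in the atrium too, so the sum does not by itself show ventricular cells. The erythrocyte list summed to 6.99, 8.53 and 258 CPM and then to 2.20, 75.5 and 4.47 CPM, with its highest sums in replicate 3 of the earlier stage and replicate 2 of the later one. The epicardial list summed to 310 to 766 and 211 to 669 CPM and the endothelial list to 123 to 392 and 86.7 to 333 CPM. Both sums overlapped, but their genes went in both directions. In the endothelial list fli1a had 152, 333 and 165 raw counts and then 0, 0 and 0. There nfatc1 had 222, 199 and 37 and then 246, 309 and 209. In the epicardial list the log2 fold changes (72 hpf over 48 hpf) were -1.40 for tcf21, -1.42 for wt1a and 1.09 for aldh1a2.

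The leukocyte list differed between the stages and is given by library, because macrophages are rich in the same hydrolases. The list holds 15 genes, including the macrophage genes mpeg1.1 and csf1ra, the myeloid transcription factor spi1b and the leukocyte actin-bundling gene lcp1, and 0 of them are lysosome genes in the KEGG column. Its sum at 48 hpf was 478 CPM in replicate 1, 437 in replicate 2 and 990 in replicate 3, and at 72 hpf it was 5.50, 153 and 248 CPM. The sum of the last library was almost entirely apoeb, a lipid carrier gene that other cells also express. Without apoeb the list gave 405, 403 and 858 CPM at 48 hpf and 5.50, 133 and 5.59 CPM at 72 hpf. Leaving apoeb out was chosen after its values were seen. With apoeb, replicate 3 had the highest sum at 72 hpf, and without it replicate 2. Of the 15 markers, 14, 13 and 12 were above 3 counts at 48 hpf and 2, 10 and 2 at 72 hpf. Among the defining markers, spi1b had 176, 154 and 316 raw counts at the earlier stage and 1, 0 and 0 at the later one, and mpeg1.1 had 274, 300 and 652 and then 0, 94 and 0. All 48 hpf libraries thus held RNA of the list, with the highest sum in replicate 3. At 72 hpf most of the list was above 3 counts in replicate 2 only. Not every marker followed this pattern. At 48 hpf mpx had 232, 0 and 0 raw counts and lyz 114, 5 and 1. For c1qa the counts were 20, 67 and 49 and then 17, 73 and 19, and cd74a had 0 in every 48 hpf library and then 0, 15 and 1. In bulk RNA, fewer cells of a type and less RNA per cell cannot be told apart.

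As a group, the lysosome genes had lower estimates at 72 hpf than at 48 hpf, but not one was past the threshold of the main test. The stages were compared with edgeR's quasi-likelihood test on the raw counts of 16100 genes, and genes were called at a Benjamini-Hochberg adjusted p below 0.05 and a change of more than 1.5-fold in either direction, with log2 fold changes given as 72 hpf over 48 hpf. No member was called (0 of 116), against 0 lower (0% of genes tested) and 1 higher (0.00621%) in the whole table, and the smallest adjusted p of a member was 0.240 (scarb2a). At an unadjusted p below 0.05, 24 members were lower (20.7%, against 5.63% of all genes tested) and 3 were higher (a share under the 3.12% of all genes). DESeq2, the tool that the paper's methods name for this comparison, fitted 113 of the members. At the same thresholds it called 12 lower (against 2.77% of 15777 genes) and 1 higher (a share under the 1.15% of all genes). All 12 lower members were among the 24, and DESeq2 did not call the rest of the 24. The median log2 fold change of the members was -0.40, beside -0.02 for all genes tested, and 89 of 116 estimates were negative (76.7%, beside 51.6%).

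In 33 members all 3 normalized counts at 72 hpf lay under all 3 at 48 hpf (28.4%, against 9.32% of all genes), and in 6 they lay above (against 7.24%). Some of the 33, such as acp5a, gnsb, ctss2.2 and napsa, passed the count minimum only through their 48 hpf counts. Of the 93 members above 3 counts in all 6 libraries, 26 lay under in this way and 5 above. The 26 are 28.0%, against 8.53% of genes that met the same condition. Summed over all members, the CPM at 48 hpf were 9963, 9039 and 11213 for replicates 1, 2 and 3, and those at 72 hpf 8131, 7860 and 7350, so the groups did not overlap. The means were 10071 ± 1091 and 7780 ± 397 (SD, n = 3 libraries each). With so few libraries the smallest p that an exact permutation test allows is 0.1. The leukocyte and ventricular marker sums differed in the same direction, the ventricular sum mostly through myh7 and myh7l. Without replicate 3 at 48 hpf and replicate 2 at 72 hpf, the libraries with the highest erythrocyte sums and the highest leukocyte sums apart from apoeb, 13 of 115 members were lower at an unadjusted p below 0.05 (11.3%, against 7.07% of all genes in the same fit). With the same 2 libraries left out the median was -0.39. A set restricted to the 93 members above 3 counts in all 6 libraries had a median of -0.37 (0.02 for the 10826 genes that met the same condition).

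The estimates differed by class. Proteases had a median log2 fold change of -0.97 over 15 genes, sulfatases with their activator -0.56 over 7, enzymes of lipids, phosphate esters and nucleic acids -0.53 over 14, membrane proteins -0.48 over 21, glycosidases -0.41 over 17, V-ATPase genes -0.32 over 12, adaptors and clathrin -0.12 over 20, and sorting receptors and tagging enzymes 0.00 over 5. The remaining 5 members matched no symbol list of a class. They include arsg, an arylsulfatase (0.46 ± 2.79), and si:ch211-122f10.4, annotated as a carboxypeptidase (-2.54 ± 0.78). The counts and medians of sulfatases and proteases given here leave them out. At an unadjusted p below 0.05, 15 of the 53 members in the first 3 classes and the glycosidases were lower (28.3%). Of the other 63 members, 9 were lower (14.3%), beside 5.63% of all genes tested. The order of the medians depended on the libraries. Without replicate 3 at 48 hpf and replicate 2 at 72 hpf the proteases had -0.70 and the sulfatases -0.91, and without replicate 3 at 72 hpf alone the sulfatases had -0.18. The difference between classes itself was not tested.

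**Figure D1:**
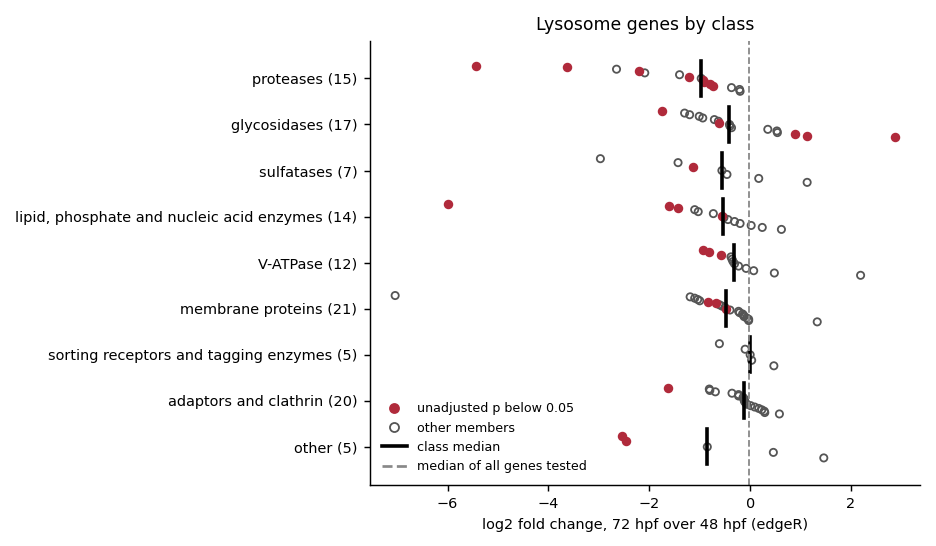
Log2 fold change (72 hpf over 48 hpf, from edgeR) of each of the 116 lysosome genes, 1 point per gene, by class with the number of members in parentheses; filled points had an unadjusted p below 0.05, vertical bars are class medians and the dashed line is the median of all genes tested, -0.02. All 15 proteases lie left of 0, while the adaptors and clathrin lie around it.

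The proteases had the most negative median of the named classes when all libraries were used. All 15 estimates were negative, against 51.6% of all genes tested. At an unadjusted p below 0.05, 8 were lower (53.3%, against 5.63%). In 12 the stages did not overlap, with 72 hpf lower (80%, against 9.32%). Of the 15 proteases, 9 were above 3 counts in all 6 libraries. The 12 include ctss2.2, with 30, 39 and 22 raw counts and then 0, 20 and 0. They also include napsa, with 54, 101 and 65 and then 0, 0 and 27. Both passed the count minimum only through their 48 hpf counts. DESeq2 called 3 proteases lower (20%, against 2.77%), lgmn, ctsz and ctsba. Legumain (lgmn), an asparagine-specific endopeptidase that also matures cathepsins, had 1212, 1018 and 1664 normalized counts (scaled by TMM to the mean library) at 48 hpf and 770, 698 and 603 at 72 hpf. Every 72 hpf library was under every 48 hpf library. Its log2 fold change was -0.91 ± 0.20 (SE), with an adjusted p of 0.337 from edgeR and 0.000373 from DESeq2.

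Cathepsin B (ctsba), an abundant cysteine protease, had 824, 702 and 1309 normalized counts at 48 hpf and 465, 430 and 595 at 72 hpf. Cathepsin Z (ctsz), a carboxypeptidase, had 304, 260 and 513 and then 131, 163 and 173. For both genes the stages did not overlap and replicate 3 was the highest of the 48 hpf libraries. Their log2 fold changes were -0.93 ± 0.26 for ctsba and -1.21 ± 0.33 for ctsz, both with an adjusted p of 0.411 from edgeR, and DESeq2 gave adjusted p of 0.00674 and 0.0118. The ctsba locus overlaps cgref1 on the opposite strand, and since the sources used here give no strand setting for the counting, reads of the 2 genes cannot be told apart.

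Other proteases had few or no counts in some 72 hpf libraries. Cathepsin S, a protease of antigen-presenting cells in mammals, is represented by ctss2.1, which had 391, 337 and 832 normalized counts at 48 hpf, and 0, 34.7 and 0 in the 72 hpf libraries. The only 72 hpf library with counts of it was replicate 2, the one that also held mpeg1.1. The neighbouring copy ctss2.2 had 28.4, 30.9 and 26.8 and then 0, 19.8 and 0, again with counts at 72 hpf in replicate 2 alone. Both lie with ctsk in a cluster on chromosome 16 of danRer11, from 29492749 (start of ctsk) to 29519977 (end of ctss2.2). Cathepsin K (ctsk), best known from bone-resorbing osteoclasts, had 180, 191 and 399 at 48 hpf and 0, 142 and 150 at 72 hpf, with every 72 hpf library under every 48 hpf library and counts in replicates 2 and 3 at 72 hpf. The log2 fold change was -5.44 ± 1.36 for ctss2.1, -2.09 ± 2.04 for ctss2.2 and -1.40 ± 1.26 for ctsk, with adjusted p of 0.396, 0.840 and 0.822 from edgeR. DESeq2 gave adjusted p of 0.168, 0.679 and 0.827 and called none of them. The size for ctss2.1 rests on its counts in replicate 2 at 72 hpf: without that library all 72 hpf counts are 0 and the fitted value was -12.02, which depends on the prior count. Reads that map to several places had been removed, which can lower the counts of neighbouring copies that share sequence.

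The dipeptidyl peptidase cathepsin C (ctsc), which activates serine proteases of immune cells, had 533, 331 and 1172 normalized counts at 48 hpf and 135, 238 and 68.3 at 72 hpf. A cathepsin L copy, ctsl.1, had 589, 221 and 1113 and then 47.0, 105 and 0. Replicate 3 at 48 hpf and replicate 2 at 72 hpf were the highest of their stage for both genes, as they were for the leukocyte list without apoeb and the erythrocyte list. Their log2 fold changes were -2.20 ± 0.59 and -3.64 ± 1.16, with adjusted p of 0.400 and 0.460 from edgeR. DESeq2 gave adjusted p of 0.0514 and 0.239 and called neither gene. Of the other copies of cathepsin L, ctsla had 1152, 957 and 1400 at 48 hpf and 1020, 1044 and 996 at 72 hpf, with overlap and a log2 fold change of -0.20 ± 0.16. The difference between the 2 copies was not tested.

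The most highly counted proteases included some with small differences. Cathepsin D (ctsd), the main aspartic protease, had a log2 fold change of -0.37 ± 0.16, and cathepsin F (ctsf), another cysteine protease, had -0.21 ± 0.12. The aminopeptidase cathepsin H (ctsh) and tripeptidyl peptidase 1 (tpp1), which trims peptides from the amino end, were lower at an unadjusted p below 0.05 with -0.79 ± 0.26 and -0.74 ± 0.25. For ctsh and tpp1 the 3 normalized counts at 72 hpf (185 to 255 and 199 to 261) were all under those at 48 hpf (303 to 453 and 322 to 455). The summed CPM of all 15 proteases were 1891, 1547 and 2722 at 48 hpf and 1172, 1189 and 1141 at 72 hpf, with the 72 hpf libraries close together and the 48 hpf libraries spread widely.

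**Figure D2:**
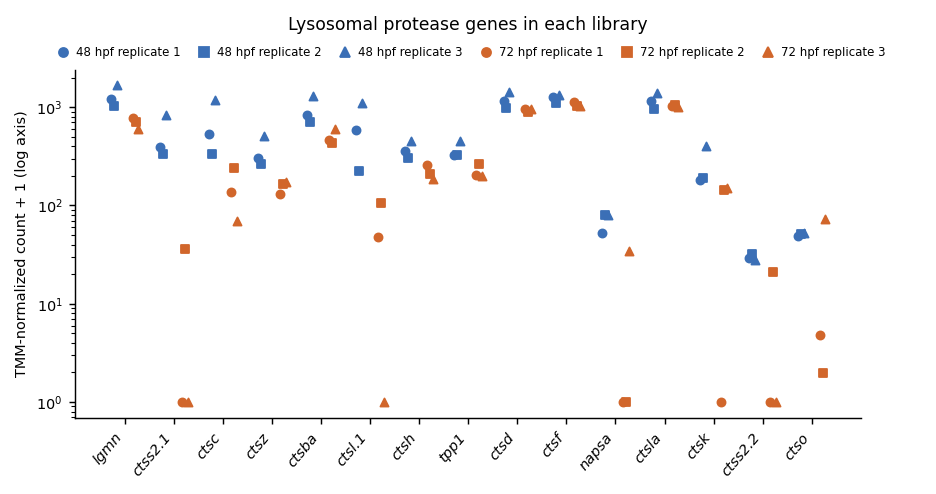
TMM-normalized counts plus 1 (log axis) of the 15 lysosomal protease genes in each library, blue for 48 hpf and orange for 72 hpf, with a circle, square and triangle for replicates 1, 2 and 3; genes run from the smallest to the largest p of edgeR. The orange points of lgmn to tpp1 lie under all blue points, and ctss2.1 has 0, 34.7 and 0 at 72 hpf.

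The next class holds the enzymes that act on lipids, phosphate esters and nucleic acids, with the sphingolipid activator gene psap. Of 14 members, 4 were lower at an unadjusted p below 0.05 (28.6%, against 5.63% of all genes tested). In 7 the stages did not overlap, with 72 hpf lower (50%, against 9.32%). DESeq2 called 2 lower (14.3%, against 2.77%). The tartrate-resistant acid phosphatase acp5a, a marker of osteoclasts and some macrophages in mammals, had 147, 107 and 288 normalized counts at 48 hpf, and 0, 7.94 and 0 in the 72 hpf libraries. The 1 library of 72 hpf with counts was again replicate 2. It passed the count minimum through its 48 hpf counts alone, with 156, 135 and 237 raw counts there and 0, 8 and 0 at 72 hpf. DESeq2 called it lower, and edgeR gave a log2 fold change of -6.00 ± 1.44 with an adjusted p of 0.372. That size rests on the 8 counts, since without replicate 2 at 72 hpf the fitted value was -10.49, which depends on the prior count. Acid sphingomyelinase (smpd1), which splits sphingomyelin into ceramide, had 244, 178 and 225 and then 68.1, 49.6 and 120. All 48 hpf libraries were above all 72 hpf libraries, and replicate 3 was not the highest at 48 hpf. For smpd1 the log2 estimate was -1.44 ± 0.45, with an adjusted p of 0.457 by edgeR and 0.0328 by DESeq2. The gene overlaps ilk on the same strand, and reads in the shared part had been left out of the counts.

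Prosaposin (psap), whose product is cut into the saposins that present lipids to hydrolases, had 1403, 1262 and 2074 normalized counts at 48 hpf, and 1044, 1110 and 1088 in the 72 hpf libraries. The stages did not overlap, and the log2 fold change was -0.55 ± 0.19. Both copies of acid ceramidase, the enzyme that follows smpd1 in sphingolipid breakdown, were lower without overlap, with 134 to 311 normalized counts at 48 hpf and 21.1 to 117 at 72 hpf for asah1a and 158 to 417 and 68.3 to 151 for asah1b. Their log2 fold changes were -1.60 ± 0.68 and -1.1 ± 0.52, and only asah1a had an unadjusted p below 0.05. The thioesterase ppt1, which removes fatty acids from proteins, had a log2 fold change of -0.20 ± 0.13, and the ganglioside activator gm2a of 0.02 ± 0.33.

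Glycosidases, which trim sugar chains, had members in both directions. Of 17 members, 2 were lower at an unadjusted p below 0.05 (11.8%, against 5.63% of all genes tested). At that level 3 were higher. They were the only higher ones among all 116 members, a share under the 3.12% of all genes tested. The α-N-acetylglucosaminidase naglu, which acts on heparan sulfate, had 93.6, 94.9 and 139 normalized counts at 48 hpf and 190, 264 and 258 at 72 hpf. All 72 hpf libraries were above all 48 hpf libraries. It was the 1 member that DESeq2 called higher (adjusted p = 0.0369), and edgeR gave a log2 fold change of 1.12 ± 0.35 with an adjusted p of 0.446.

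The α-L-iduronidase idua, which cleaves heparan and dermatan sulfate, had 92.7, 107 and 181 at 48 hpf and 200, 243 and 257 at 72 hpf. The third higher gene is si:ch73-12o23.1, an α-glucosidase by the name table (gaa2), with 41.6, 3.16 and 4.87 at 48 hpf and 57.5, 101 and 209 at 72 hpf. In both genes the stages did not overlap, though replicate 1 at 48 hpf came close to replicate 1 at 72 hpf in the second. Their log2 fold changes were 0.88 ± 0.37 and 2.88 ± 1.17, each with an adjusted p of 0.565 from edgeR. Without replicate 1 at 48 hpf the estimate for si:ch73-12o23.1 was 4.90, and of the 6 fits that leave out 1 library, 2 kept an unadjusted p below 0.05 for it and 1 for idua. The second α-glucosidase, gaa, the glycogen-degrading enzyme, had a log2 fold change of -0.41 ± 1.1.

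On the lower side, the α-N-acetylgalactosaminidase naga had 187, 305 and 443 normalized counts at 48 hpf and 102, 33.7 and 145 at 72 hpf, without overlap. The log2 fold change of naga was -1.74 ± 0.58, with an adjusted p of 0.484 by edgeR and 0.0241 by DESeq2. The α-mannosidase man2b1 had 348, 367 and 355 and then 252, 224 and 225. The replicates of each stage were close together and the stages did not overlap. Its log2 fold change was -0.61 ± 0.21, with an adjusted p of 0.488 from edgeR. Both genes overlap another gene on the opposite strand, rpap3 for naga and trmt1 for man2b1. The abundant hexosaminidase subunit hexb had a log2 fold change of -0.37 ± 0.18 and the β-glucuronidase gusb of -0.40 ± 0.30, neither with an unadjusted p below 0.05.

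Among the sulfatases, which remove sulfate groups from lipids and glycosaminoglycans, 1 of 7 was lower at an unadjusted p below 0.05. This is 14.3%, against 5.63% of all genes tested. Arylsulfatase A (arsa), which acts on the myelin lipid sulfatide, had 100, 177 and 237 normalized counts at 48 hpf, and 67.1, 88.3 and 79.5 in the 72 hpf libraries. The stages did not overlap, although replicate 1 at 48 hpf was close to the 72 hpf libraries, and the log2 estimate was -1.13 ± 0.47, with an adjusted p of 0.565 by edgeR. The heparan sulfate enzymes gnsa and sgsh had log2 fold changes of -0.46 ± 0.36 and 0.17 ± 0.37. The summed CPM of the class were 255 to 270 at 48 hpf and 123 to 231 at 72 hpf, with replicate 3 the lowest at 72 hpf. Without that library the class median was -0.18, compared with -0.56.

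The KEGG column also files members under other terms, which group the hydrolases by substrate. For glycosaminoglycan degradation, 12 members had a median log2 fold change of -0.10, with 0 lower and 2 higher (naglu and idua) at an unadjusted p below 0.05. Of all genes tested, 5.63% were lower and 3.12% higher at that level. For sphingolipid metabolism, 10 members had a median of -1.11, with 9 negative estimates and 3 lower at that level. The 13 proteases that the column also files under Apoptosis had a median of -1.21, all estimates negative and 6 lower. The 5 endocytosis members, all clathrin genes and the receptor igf2r, had a median of -0.07 and 0 lower.

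**Figure D3:**
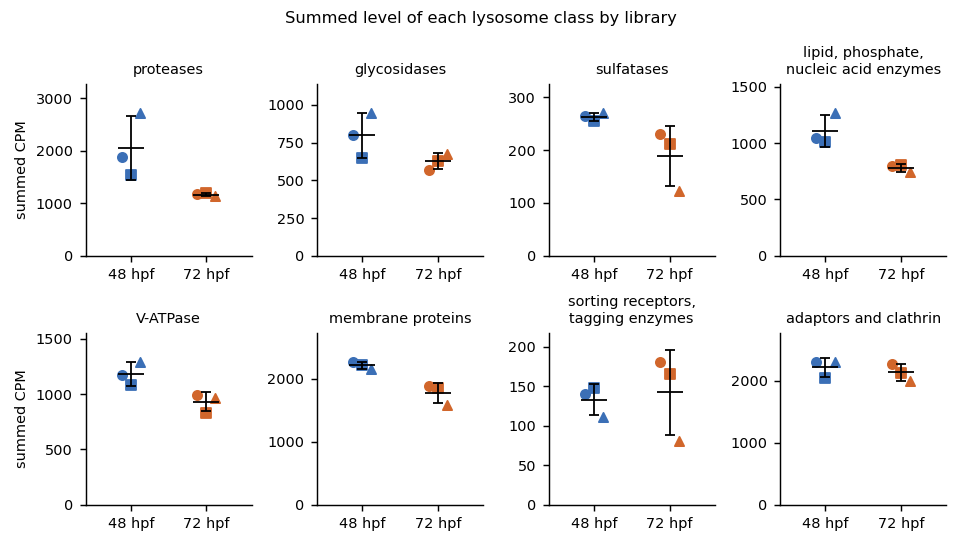
Summed CPM of the members of each of 8 classes in the 3 libraries per stage (circle, square and triangle for replicates 1, 2 and 3), with the mean and SD in black and each vertical axis starting at 0. The protease sums lie between 1547 and 2722 at 48 hpf and between 1141 and 1189 at 72 hpf, and the adaptor and clathrin sums overlap.

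The V-ATPase consists of a membrane sector that carries protons and a soluble sector that uses ATP, and the KEGG column lists 12 members, mostly of the membrane sector. Of these, 3 were lower at an unadjusted p below 0.05 (25%, against 5.63% of all genes tested), atp6v0ca, tcirg1b and atp6ap1b. The proteolipid gene atp6v0ca, a subunit of the proton-carrying ring, had 517, 611 and 796 normalized counts at 48 hpf and 264, 381 and 356 at 72 hpf. Its log2 fold change was -0.94 ± 0.23, with an adjusted p of 0.393 from edgeR and 0.00386 from DESeq2. The second copy of the same subunit, atp6v0cb, had 555, 409 and 639 and then 659, 456 and 569, with overlap and a log2 fold change of 0.07 ± 0.23. The atp6v0ca locus overlaps CR387933.1 on the opposite strand. The class members with the highest mean CPM, the a1 subunit gene atp6v0a1a and the regulatory subunit gene atp6v1h, had log2 fold changes of -0.36 ± 0.17 and -0.38 ± 0.19, neither with an unadjusted p below 0.05.

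The a3 subunit, known in mammals from osteoclasts, is encoded by a further pair. For tcirg1b the normalized counts were 623, 452 and 622 at 48 hpf and 303, 363 and 466 at 72 hpf, and for tcirg1a 53.9, 9.49 and 17.0 and then 213, 45.6 and 109. The stages overlapped for both copies. The log2 fold changes were -0.58 ± 0.23 and 2.19 ± 0.94, with adjusted p of 0.558 and 0.565 from edgeR. The accessory subunit gene atp6ap1b had -0.81 ± 0.32 and its copy atp6ap1a 0.48 ± 0.54. A further 14 V-ATPase genes, mostly of the soluble sector, stand outside the Lysosome term and were listed after values had been seen. Of these, 13 were tested, with a median of -0.33 and 11 negative estimates. At an unadjusted p below 0.05, 2 were lower (15.4%, against 5.63% of all genes tested), atp6v1aa (-0.51 ± 0.21) and atp6v1ba (-0.54 ± 0.19).

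The 21 genes for membrane proteins and their partners gave 20 negative estimates (95.2%, against 51.6% of all genes tested), with a median of -0.48. At an unadjusted p below 0.05, 3 were lower (14.3%, against 5.63%). The member with the smallest p in the set belongs here. LIMP-2 (scarb2a), which carries the glucocerebrosidase to the lysosome in mammals, had 991, 1229 and 1140 normalized counts at 48 hpf, and 583, 636 and 674 in the 72 hpf libraries. The replicates of each stage were close together and far from the other stage, and replicate 3 was not the highest at 48 hpf. The means were 1120 ± 120 and 631 ± 45.8 (SD, n = 3 libraries each). The log2 fold change was -0.83 ± 0.14, with an adjusted p of 0.240 from edgeR and 1.1e-05 from DESeq2.

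Sortilin (sort1a), a receptor that moves hydrolases and other cargo from the Golgi, had 1497, 1331 and 1037 and then 875, 908 and 634. The stages did not overlap, and here replicate 3 was the lowest library of each stage. This gave a log2 fold change of -0.68 ± 0.20, with an adjusted p of 0.411 by edgeR and 0.0140 by DESeq2. The copy sort1b had 56.7, 80.7 and 52.3 and then 297, 96.2 and 83.2, with every 72 hpf library above every 48 hpf library, a log2 fold change of 1.33 ± 0.63 and an adjusted p of 0.590 from edgeR.

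Npc2, the soluble carrier of cholesterol, was the third lower gene, with 434 to 642 normalized counts at 48 hpf and 362 to 385 at 72 hpf and a log2 fold change of -0.48 ± 0.20. Without replicate 3 at 48 hpf the value was -0.29, and an unadjusted p below 0.05 held in 1 of the 6 fits that leave out 1 library. Its membrane partner npc1 had -0.23 ± 0.35. The abundant structural members lamp1b, cd164, laptm4a and laptm4b had log2 fold changes of -0.15, -0.21, -0.07 and -0.12, all with overlapping stages. The cation channel gene mcoln1b had 19, 39 and 0 raw counts in the 48 hpf libraries and none at 72 hpf. Against a floor of 3 counts over the 3 libraries of 72 hpf this is 17.3-fold lower or more, if only counting error is considered. Its 48 hpf counts were in 2 libraries only, and edgeR gave an unadjusted p of 0.0509. It is also among the members just inside the count minimum, with a mean of 9.67 raw counts, after ap1m2 with 6 and CABZ01045212.1 with 8.5. Just outside lay dnase2b with 3.17, all in replicate 2 at 72 hpf, and ctss1 with 2.33.

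Zebrafish kept both copies of many genes after the genome duplication of bony fishes, and 9 such pairs have both copies among the members. In 4 pairs (asah1, atp6v0a2, galc and gns) both estimates were negative, and in 5 (atp6ap1, atp6v0c, cltc, sort1 and tcirg1) they had opposite signs. The difference between the copies of a pair was not tested, and the standard errors of several estimates cross 0.

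**Figure D4:**
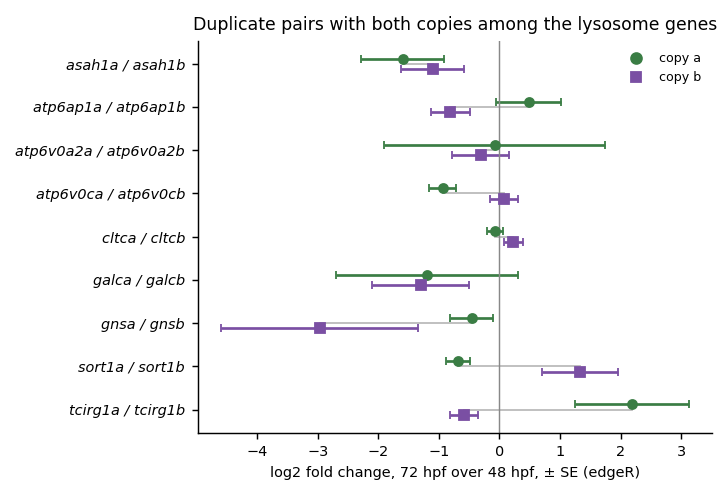
Log2 fold change (72 hpf over 48 hpf, from edgeR) with its standard error for 9 duplicate pairs, green circles for copy a and purple squares for copy b. The copies of atp6v0c stand at -0.94 and 0.07, and those of sort1 at -0.68 and 1.33.

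The classes of sorting receptors with tagging enzymes and of adaptors with clathrin showed few differences. They leave out the sortilin copies and scarb2a, which also act in delivery but were counted with the membrane proteins. None of the 5 genes for mannose 6-phosphate receptors and for the enzymes that add the mannose 6-phosphate tag was lower or higher at an unadjusted p below 0.05. The tagging enzyme gnptab had a log2 fold change of 0.00 ± 0.48, with 228, 254 and 246 normalized counts at 48 hpf and 337, 307 and 85.7 at 72 hpf, so that replicate 3 at 72 hpf alone was low. The receptor m6pr had 0.47 ± 0.47. Of the 20 adaptor and clathrin genes, 1 was lower at that level (5%, near the 5.63% of all genes tested). The AP-3 subunit ap3m2, part of the complex that sorts membrane proteins to lysosomes, had 245, 200 and 298 and then 107, 91.3 and 41.0. The stages did not overlap, the log2 fold change was -1.63 ± 0.45, and the adjusted p was 0.411 from edgeR and 0.00897 from DESeq2.

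The alternative AP-3 subunit ap3m1 had 311, 271 and 291 normalized counts at 48 hpf and 330, 291 and 256 at 72 hpf, a log2 fold change of 0.01 ± 0.22. The clathrin heavy chain genes cltca and cltcb had -0.07 ± 0.13 and 0.23 ± 0.16, the AP-1 subunit ap1b1 -0.14 ± 0.14 and the Golgi adaptor gga1 -0.09 ± 0.17. Their stages all overlapped. The summed CPM of the class were 2306, 2040 and 2307 at 48 hpf and 2274, 2132 and 2005 at 72 hpf, with overlap.

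Of the 5 members in no class list, 2 were lower at an unadjusted p below 0.05 (40%, against 5.63% of all genes tested). DESeq2 called both of them lower (against 2.77% of all genes). The locus si:ch211-212k18.7, named cd68 in the name table, a glycoprotein of macrophage lysosomes in mammals, had 132, 196 and 335 normalized counts at 48 hpf and 14.4, 78.4 and 27.3 at 72 hpf. Replicate 3 at 48 hpf and replicate 2 at 72 hpf were again the highest of their stages. The estimate was -2.46 ± 0.73 on the log2 scale, with an adjusted p of 0.423 by edgeR and 0.00660 by DESeq2. The locus si:ch211-122f10.4, annotated as a carboxypeptidase, had 133, 166 and 213 and then 46.0, 5.95 and 36.0. Here replicate 2 was the lowest of the 72 hpf libraries. The estimate was -2.54 ± 0.78 on the log2 scale, with an adjusted p of 0.442 by edgeR and 0.0103 by DESeq2, and the gene overlaps slc38a7 on the same strand.

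The library with the highest count was not the same for all lower genes. Of the 24 members lower at an unadjusted p below 0.05, 19 had their highest 48 hpf count in replicate 3 (79.2%, beside 41.6% of all genes lower at that level), and all 8 lower proteases did. At 48 hpf, replicate 3 also had the highest leukocyte, erythrocyte, ventricular and atrial marker sums. The exceptions were man2b1 and scarb2a, highest in replicate 2, and smpd1, sort1a and tcirg1b, highest in replicate 1. At 72 hpf, 11 of the 24 were highest in replicate 2 (45.8%, beside 35.2%). With replicate 3 at 48 hpf and replicate 2 at 72 hpf left out, the log2 fold change was -0.82 for scarb2a, -0.90 for sort1a, -1.58 for ap3m2, -0.86 for atp6v0ca and -0.58 for man2b1, all within 1.5 times the value from all libraries, as were those of lgmn (-0.70) and ctsz (-0.89). It was -0.53 for ctsba, -0.99 for naga, -0.41 for atp6ap1b and -0.32 for psap, compared with -0.93, -1.74, -0.81 and -0.55 from all libraries. Without replicate 3 at 48 hpf alone, psap had -0.30. With both of these libraries left out, the leukocyte list without apoeb still had 405 and 403 CPM against 5.50 and 5.59. That fit thus cannot show which differences are free of leukocyte RNA. The part of leukocyte, erythrocyte, ventricular, endothelial or epicardial RNA in these differences was not tested.

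**Figure D5:**
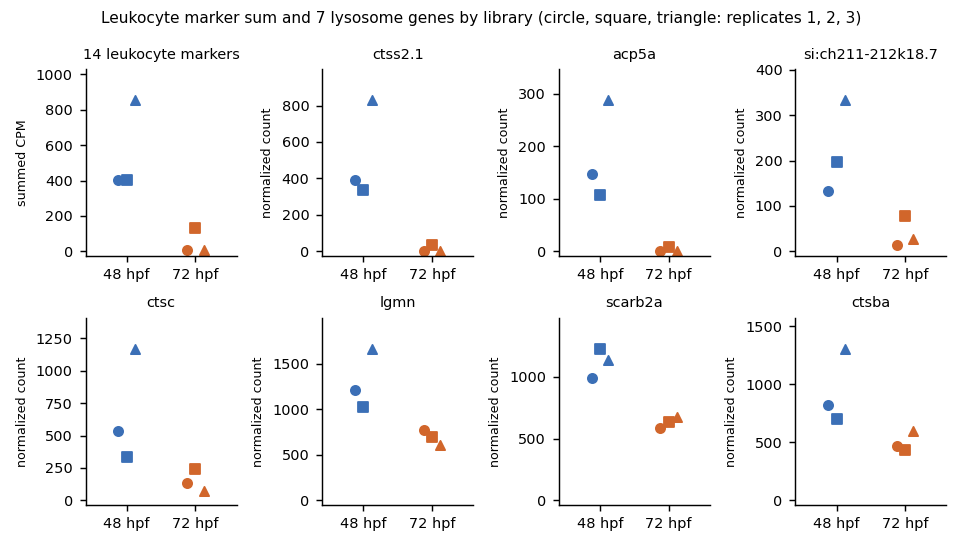
Summed CPM of 14 leukocyte markers (the list without apoeb) and TMM-normalized counts of 7 lysosome genes in each library, with a circle, square and triangle for replicates 1, 2 and 3 and each vertical axis starting near 0. The triangle at 48 hpf is highest for the markers (858 CPM) and for ctss2.1, acp5a, si:ch211-212k18.7, ctsc, lgmn and ctsba, but not for scarb2a.

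A list by role of genes that act on the lysosome but stand outside the KEGG term had a median nearer to 0. It does not hold the V-ATPase genes outside the term, whose median was -0.33. Of 60 genes listed by role, 58 were found in the table and 55 were tested. These had a median log2 fold change of -0.10 and 36 negative estimates. At an unadjusted p below 0.05, 4 were lower (7.27%, near the 5.63% of all genes) and 0 higher. By edgeR's adjusted p none was called (0 of 55), and DESeq2 called 1 lower (1.82%, under the 2.77% of all genes), vamp8, a SNARE protein of vesicle fusion. It had 197, 242 and 215 normalized counts at 48 hpf and 69.0, 102 and 104.3 at 72 hpf, without overlap, and a log2 fold change of -1.25 ± 0.36 (adjusted p = 0.411 from edgeR, 0.0220 from DESeq2). The other 3 at an unadjusted p below 0.05 were autophagy genes, the receptor optn (-0.79 ± 0.29) and the ubiquitin-like autophagosome proteins gabarapa (-0.49 ± 0.19) and map1lc3b (-0.36 ± 0.14).

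Tfeb and tfe3a, transcription factors that switch on lysosome genes in mammals, had log2 fold changes of -0.10 ± 0.37 and -0.05 ± 0.69. For tfeb the normalized counts were 335, 153 and 208 at 48 hpf and 179, 204 and 263 at 72 hpf, with overlap. The 14 genes listed for the growth kinase complex mTORC1 and its docking on the lysosome, among them mtor and rptor, had a median of -0.10. At an unadjusted p below 0.05, 0 of them were lower and 0 higher.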

How the data were processed

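The deposited values are raw read counts per gene in 1 table for all 6 libraries. Per the labels and the paper's methods, the authors prepared libraries from total RNA with the SMART-Seq HT kit and sequenced them from 1 end. Trimming used Trimmomatic 0.39, alignment to danRer11 (Ensembl release 104) STAR 2.7.10a, duplicate removal Picard 3.0.0 and counting featureCounts 2.0.4. Reads from ribosomal or mitochondrial genes, reads with several alignments and reads shared by several genes were dropped by the authors, which lowers genes with near-identical copies. Whether counting was stranded is not given in the sources used here. Coordinates and gene symbols come from the table, and 115 member IDs matched the name table. Of the members, 21 overlap another gene, 18 of them one on the opposite strand.

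Groups are the stages in the labels. Counts were tested with edgeR 4.0.16 in R 4.3.3 (TMM, robust quasi-likelihood, no covariate, genes with a mean normalized count above 5, Benjamini-Hochberg over all genes tested), and the code was tested on simulated data. Standard errors were derived from the F statistic (fold change over its square root). Levels were not scaled by length and are not compared between genes. Alternatives were DESeq2 1.42.0 with its own filters, limma 3.58.1 with voom, RLE size factors, other filters, no fold change threshold, a replicate block, the sorter as a covariate, each library left out, a membership minimum of 20, genes of uncertain class left out and 3 alternatives added after seeing the data. Genes were named if they had an unadjusted p below 0.05, were called by DESeq2 or had the 2 highest mean CPM of their class, or were copies or partner subunits of these. Members just inside and outside the minimum and the other genes named were chosen after their values were seen. The members and lists were chosen with earlier results of these data known.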

Additional observations from a re-analysis of the deposited data

How the results depend on the processing

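Of all alternative values computed, 869 were taken as the same, 26 moved, 13 passed the threshold (all with DESeq2) and 9 changed sign. Taken as the same were counts within 1.5 times the main count, medians within the spread between replicates, and values on the same side of the threshold. With DESeq2, 12 members were called lower and 1 higher, 5 were higher at an unadjusted p below 0.05, and 1 gene outside the KEGG term was called lower. Every edgeR and voom fit called 0 members. Without 48 hpf replicate 3 and 72 hpf replicate 2, 13 members were lower at an unadjusted p below 0.05 (11.3%, against 7.07% of all genes), and the medians were -0.70 for proteases, -0.91 for sulfatases, -0.35 for enzymes of lipids, phosphate esters and nucleic acids and 0.00 for adaptors and clathrin. With replicates 1 and 2 of each stage only, the last 2 medians were -0.33 and -0.02, and 2 genes of the list by role were lower. Leaving genes of uncertain class out gave -0.63 for the lipid class and -0.79 for sulfatases.

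With 1 library left out at a time, 17 to 28 members were lower and 1 to 3 higher at an unadjusted p below 0.05, with 1 higher only without 72 hpf replicate 2, while 4.05% to 6.65% of all genes were lower in these fits and 14.7% to 24.6% of the members. The median of all members was -0.51 to -0.35 and that of the lipid class -0.62 to -0.36. For the V-ATPase genes it was -0.42 to -0.20 (least without 72 hpf replicate 2). The membrane proteins had -0.64 to -0.25 (least without 48 hpf replicate 2). Sulfatases had -0.88 to -0.18 (least without 72 hpf replicate 3) and glycosidases -0.59 to -0.26 (least without 48 hpf replicate 3). In the list by role outside the term, 1 to 4 genes were lower. Of the 24 lower members, 12 kept an unadjusted p below 0.05 in all 6 such fits: lgmn, ctss2.1, ctsc, ctsz, ctsba, acp5a, atp6v0ca, scarb2a, sort1a, ap3m2, si:ch211-212k18.7 and si:ch211-122f10.4. Among these, ctss2.1 and ctsc were not called by DESeq2.

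Estimates near 0 changed sign. That of cltca was -0.15 to 0.02 with 1 library left out and 0.07 with replicates 1 and 2, gusb had 0.00 without 48 hpf replicate 3 and 72 hpf replicate 2, and gnptab had -0.30 to 0.41 with 1 library left out, -0.19 without those libraries and -0.20 with the sorter as a covariate. The causes were not tested. With the replicate block, 23 members were lower at an unadjusted p below 0.05, the median was -0.37 and gnptab had -0.20. The labels do not say that the replicate numbers pair the pools, and correlations of same-numbered deviations were -0.00681, 0.0978 and 0.00673, so the block was not used for the main values.

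The count minimum and 3 libraries per stage limit genes of low count: 23 members were at or under 3 counts in at least 1 library.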
